A study of Mus musculus with 16 samples.

Results

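Oxidative phosphorylation in the kidney cortex was followed through the nuclear genes that encode subunits of the respiratory chain and of ATP synthase. The genes were chosen by name, as those whose GENCODE M21 symbol begins with Nduf followed by a, b, c, s or v and a number, is Sdha, Sdhb, Sdhc or Sdhd, or begins with Uqcr, Cox4 to Cox8 or Atp5. Of 97 matching names, 12 were left out as pseudogenes or names with the suffix -ps, which left 85 genes of 55414 in the count table. They comprised 35 genes of complex I, 4 of complex II, 8 of complex III, 20 of complex IV and 18 of complex V. Atp5o was listed under 2 IDs, 1 of them with no counts in any library. One of the names left out, Ndufb1-ps, is annotated as a long non-coding RNA and had 4184 to 7923 counts per library, whereas the other 11 are processed pseudogenes.

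Kidney cortex came from male wild-type C57BL/6J mice, an inbred laboratory strain, and polyadenylated RNA was sequenced from 4 libraries in each of 4 groups. The exercised mice ran on a treadmill for 40 minutes at 70% of capacity over 1 day (24 h), 1 week (1 wk) or 2 weeks (2 wk), and the remaining group was sedentary. Whether the 24 h group was killed on its day of running or a day after a run is not stated, nor is it stated that each library came from a separate animal, so that p-values measure the spread between libraries. An unexplained letter in the titles separates exercised from sedentary libraries and cannot be told apart from exercise. Libraries held 39766260 to 66852397 counts. Markers of the proximal tubule, the main mitochondria-rich segment of the cortex, summed to 9449 to 13957 CPM (counts scaled to library size) over 6 genes, and those of skeletal muscle to at most 0.194 CPM over 4 genes.

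The respiratory chain lies in the inner mitochondrial membrane. Complex I oxidises NADH and complex II oxidises succinate, and both pass electrons through ubiquinone to complex III, cytochrome c and complex IV, where oxygen is reduced. Complexes I, III and IV pump protons, and ATP synthase, complex V, uses the gradient to make ATP. Complex II is encoded wholly in the nucleus, whereas the others also contain subunits made from mitochondrial DNA. The proximal tubule relies on this pathway to drive sodium reabsorption, and endurance training is known to raise respiratory chain content in skeletal muscle.

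Promoters of nuclear subunit genes are known for sites of nuclear respiratory factor 1 (NRF1), of the ETS factor GABPA and of YY1. RefSeq promoter windows on GRCm38.p6, from 250 bases before to 50 bases after the start of transcription, were matched for 68 distinct genes, and 16 symbols were not matched. The following windows show, for each complex, a gene that holds such motifs, with 2 of the 3 kinds where a gene of the complex had them. Capitals mark matches on either strand to NRF1 (GCGCATGC), ETS (CCGGAAG) or YY1 (AAGATGGC), and each sequence runs 5′ to 3′ on the strand of its gene. Ndufs7, a core subunit of complex I, lies at chr10:80249199-80249498 on the plus strand, and Sdhb, the iron-sulfur subunit of complex II, at chr4:140961021-140961320 on the plus strand. Uqcr11 of complex III lies at chr10:80406772-80407071, Cox6a1 of complex IV at chr5:115348909-115349208 and Atp5j of complex V at chr16:84834927-84835226, all on the minus strand; that of Atp5j is the second of its RefSeq starts.
Ndufs7: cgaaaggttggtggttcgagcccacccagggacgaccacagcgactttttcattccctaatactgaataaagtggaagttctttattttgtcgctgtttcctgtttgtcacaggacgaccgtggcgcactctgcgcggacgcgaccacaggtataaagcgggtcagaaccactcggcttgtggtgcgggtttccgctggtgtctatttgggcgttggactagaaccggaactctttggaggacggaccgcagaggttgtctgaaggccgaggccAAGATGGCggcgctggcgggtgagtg
Sdhb: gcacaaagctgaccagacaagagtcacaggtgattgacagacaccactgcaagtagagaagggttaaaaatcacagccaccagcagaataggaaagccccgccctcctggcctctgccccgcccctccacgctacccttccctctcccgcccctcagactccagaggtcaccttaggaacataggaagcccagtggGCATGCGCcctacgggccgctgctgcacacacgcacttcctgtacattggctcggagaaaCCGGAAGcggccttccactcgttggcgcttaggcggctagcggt
Uqcr11: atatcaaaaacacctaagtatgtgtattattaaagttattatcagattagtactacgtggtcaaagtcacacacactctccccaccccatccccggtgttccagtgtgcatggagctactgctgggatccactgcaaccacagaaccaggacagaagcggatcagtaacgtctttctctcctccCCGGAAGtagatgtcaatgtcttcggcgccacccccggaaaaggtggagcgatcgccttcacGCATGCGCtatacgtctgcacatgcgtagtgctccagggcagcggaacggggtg
Cox6a1: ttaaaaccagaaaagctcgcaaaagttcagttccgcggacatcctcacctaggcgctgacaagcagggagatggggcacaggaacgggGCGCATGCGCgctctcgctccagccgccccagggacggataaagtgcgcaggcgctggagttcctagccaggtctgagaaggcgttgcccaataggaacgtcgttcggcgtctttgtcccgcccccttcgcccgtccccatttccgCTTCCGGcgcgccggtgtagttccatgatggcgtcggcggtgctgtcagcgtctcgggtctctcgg
Atp5j: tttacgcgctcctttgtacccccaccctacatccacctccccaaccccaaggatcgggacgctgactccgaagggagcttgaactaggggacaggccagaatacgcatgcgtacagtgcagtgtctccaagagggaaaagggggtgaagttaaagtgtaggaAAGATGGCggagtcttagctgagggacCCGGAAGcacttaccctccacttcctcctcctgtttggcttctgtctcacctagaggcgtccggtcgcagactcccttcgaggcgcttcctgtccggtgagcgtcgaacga

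In Cox6a1 the NRF1 match is a palindrome read on both strands, and overlapping matches were merged. Atp5j lies head to head with Gabpa, the gene of the ETS factor itself, and their exons share 397 bases on opposite strands. The NRF1 motif was present in 10 of 68 subunit genes (14.7%), against 5.23% of 11876 tested genes with a window and 3.05% of all 27025 genes with one. The YY1 motif was also present in 10 of 68 (14.7%), against 4.77% of tested genes and 3.19% of all genes. These YY1 matches lay in 7 of 31 genes of complex I and 3 of 15 genes of complex V, and in none of the 3 genes of complex II, 5 of complex III and 14 of complex IV. Except in Atp5f1 and Atp5j, they began 23 to 39 bases after the start of transcription, on the strand of the gene. The ETS motif was present in 23.5% of the subunit genes, 18.1% of tested genes and 9.93% of all genes. The motif of ERR alpha (AAGGTCA) was present in 11.8%, 4.23% and 5.38%, that of CREB (TGACGTCA) in 5.88%, 3.25% and 2.03%, and that of SP1 (GGGCGG) in 41.2%, 65.1% and 38.2% of the same 3 sets. At least 1 of the NRF1, ETS and YY1 motifs was found in 30 of the 68 genes (44.1%), against 25.5% of tested genes and 14.9% of all genes. These matches describe the letters in the window and were not tested for binding.

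Levels of different subunits were compared per kb of exon, as CPM per kb in sedentary cortex (SD, n = 4). The highest level of complex IV was that of Cox6a1 at 1234 ± 92.0 CPM per kb, next to Cox8a at 1219 ± 36.7, a difference smaller than the spread of either. Atp5b and Atp5a1, the beta and alpha subunits of the catalytic head of ATP synthase, stood at 946 ± 41.1 and 802 ± 38.6 CPM per kb. Complex III ranged between Uqcrc1, a core protein, at 169 CPM per kb and Uqcr10, a small accessory subunit, at 808 ± 44.1. The 4 genes of complex II lay close together, with Sdhd, a membrane anchor, at 356 ± 28.2 CPM per kb, Sdhb at 269 ± 10.3, the flavoprotein Sdha at 198 ± 20.2 and the anchor Sdhc at 173 ± 4.18. In complex I the range ran between Ndufb4 at 20.2 ± 3.58 and Ndufa1 at 461 ± 12.4 CPM per kb, both of them accessory subunits.

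The level depends on the length used. Ndufs1, the largest core subunit of complex I, had 39.4 CPM per kb over its 8086 exon bases and 119.8 CPM per kb over its longest transcript of 2661 bases. With longest transcripts, the highest in complex I was Ndufb9 at 588 CPM per kb and the lowest Ndufb2 at 33.7, the highest in complex IV was Cox4i1 at 1686 CPM per kb, and Sdhb led complex II at 489. Atp5l, the g subunit of ATP synthase, was the lowest tested gene of complex V at 0.763 CPM per kb. It has 9 pseudogene copies of at least 95% identity over 100 bases or more, up to 100%, so that its count is uncertain. In all, 22 of the 85 genes had such a copy, among them Ndufb4 and Atp5g1 with 2 each.

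**Figure D1:**
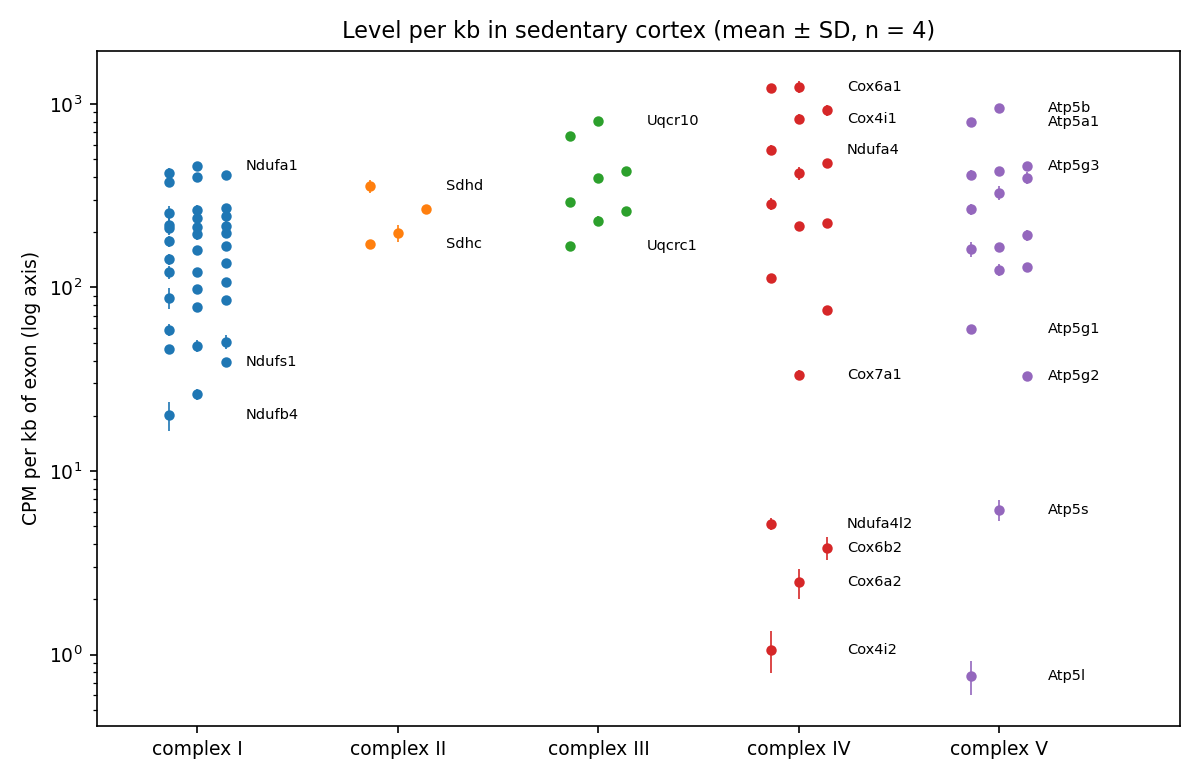
Level of each tested subunit gene in sedentary cortex, in CPM per kb of exon on a log axis, by complex; points are means and bars SD over 4 libraries. Most genes lie between 20.2 and 1234 CPM per kb, and Cox4i2, Cox6a2, Cox6b2 and Ndufa4l2 of complex IV and Atp5s and Atp5l of complex V lie below them.

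Several subunits of complexes IV and V exist as isoforms from separate genes, and the cortex used mainly 1 of each pair. Per kb in sedentary mice, Cox4i2, the lung isoform of subunit 4, made up 0.128 ± 0.032% of Cox4i1 and Cox4i2 together, and Cox6a2, the heart and muscle isoform of subunit 6a, 0.2004 ± 0.039% of its pair. Cox6b2, the testis isoform of subunit 6b, made up 0.411 ± 0.053% and Ndufa4l2, a relative of the complex IV subunit Ndufa4, 0.91 ± 0.057%. Cox7a1, the heart and muscle isoform of subunit 7a, took a larger share of 6.56 ± 0.34%. Of the 3 genes for the c subunit of the ATP synthase rotor, which encode the same mature protein, Atp5g3 took 83.3 ± 0.23%, Atp5g1 10.7 ± 0.20% and Atp5g2 5.97 ± 0.19%. These shares rest on exon lengths of 2181, 4912 and 1675 bases in that order, whereas the longest transcripts have 862, 4715 and 753 bases. Atp5g3 leads with either length, but the order of Atp5g1 and Atp5g2 depends on the length used.

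The 24 h group had the shortest exposure to running. None of the 81 genes that passed the filter on low counts changed at an adjusted p under 0.05 by edgeR's quasi-likelihood test, and 0% of all 16126 genes did. The 4 genes not tested were Cox7b2, Cox8b, Cox8c and the second Atp5o ID. At an unadjusted p under 0.05, 1 subunit gene was higher, against 4.49% of all genes, and 1 was lower, against 4.43%. Over the alternative fits that kept all libraries, 1 to 6 subunit genes were higher and 1 was lower. Scaling by total counts gave 3 higher, against 6.23% of all genes. The median log2 fold change was 0.06 over the 81 genes, 60 of them positive, and 0.00 over all genes. By complex the medians were 0.06 for complex I, -0.02 for complex II, 0.07 for complex III, 0.08 for complex IV and 0.07 for complex V. In bulk cortex, fewer cells of a type and less RNA per cell cannot be told apart.

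The gene that was higher before adjustment was Cox6b2 (ENSMUSG00000051811, GRCm38 chromosome 7, 4751792 to 4753094, minus strand). It had 6.50, 5.93, 10.3 and 5.55 CPM at 24 h, against 4.55, 3.74, 4.98 and 3.69 CPM in sedentary mice. The libraries did not overlap, and library 3 of the 24 h group stood highest. The log2 fold change was 0.73 ± 0.21 (SE; unadjusted p = 0.00261, edgeR adjusted p = 0.285), and 0.50 without that library (adjusted p = 0.835). Cox6a2 was also highest in that library, at 1.92, 1.36, 4.50 and 2.19 CPM at 24 h, against 1.43, 1.69, 2.13 and 1.47 CPM in sedentary mice, and these groups overlapped.

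The gene that was lower before adjustment was Atp5s (ENSMUSG00000054894, GRCm38 chromosome 12, 69724950 to 69744660, plus strand), which encodes factor B, a coupling factor associated with ATP synthase. It had 10.5, 10.4, 9.21 and 9.53 CPM at 24 h, against 10.7, 12.9, 14.5 and 11.97 CPM in sedentary mice. All 24 h libraries lay below all sedentary ones, by a small margin, with a log2 fold change of -0.34 ± 0.11 (SE; unadjusted p = 0.00891, edgeR adjusted p = 0.39). In all, 3 subunit genes had 24 h libraries wholly above the sedentary ones, against 3.55% of all genes, and 1 wholly below, against 3.66%. The other genes above were Ndufb10, an accessory subunit of complex I, and Atp5g1. Ndufb10 had 328.5, 309.3, 380.2 and 352.2 CPM at 24 h, against 306.6, 299, 293.6 and 267.9 CPM in sedentary mice (log2 fold change 0.23 ± 0.13, edgeR adjusted p = 0.603). Atp5g1 had 308 to 392 CPM at 24 h, against 271 to 303.5 CPM in sedentary mice (0.20 ± 0.12, adjusted p = 0.643).

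The catalytic beta subunit of ATP synthase differed little. Atp5b had 4135, 4037, 4296 and 4321 CPM at 24 h, against 4183, 4134, 3843 and 3879 CPM in sedentary mice, and these groups overlapped. Its log2 fold change was 0.07, with a 95% interval of -0.09 to 0.22. Over the 76 genes at 10 CPM or more, the 95% interval of the change at 24 h lay within 1.5-fold in either direction for all 76.

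Transcripts made from mitochondrial DNA took 2.16 to 2.71% of counts at 24 h, against 3.61 to 4.52% in sedentary libraries, and the shares of 2.66 to 4.09% at 1 wk and 2.99 to 4.23% at 2 wk overlapped the sedentary ones. Of 13 such subunit genes, 6 were at 0.153 CPM or less in each library and were not tested, mt-Co2, mt-Co3 and mt-Atp6 among them. Share and ratio were taken over all genes of mitochondrial DNA, to which these 6 added next to nothing. They therefore describe only the mitochondrial transcripts that were counted, and why these 6 were near 0 was not tested. Nuclear subunit genes took 3.51 to 4.00% at 24 h, against 3.36 to 3.64% in sedentary libraries. The ratio of the first share to the second was 0.663 ± 0.085 at 24 h and 1.11 ± 0.16 in sedentary mice (SD, n = 4). All 7 mitochondrially encoded subunit genes tested had a negative log2 fold change, with a median of -0.77, and none passed adjustment.

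After 1 week of running, again no subunit gene changed at an adjusted p under 0.05, nor did any other gene (0%). No subunit gene reached an unadjusted p under 0.05 in either direction, against 2.33% of all genes that were higher and 3.72% that were lower. This count rested on library 4 of the 1 wk group: without it, 45 of 81 subunit genes were higher at an unadjusted p under 0.05, against 5.56% of all genes, and voom with quality weights gave 46, against 6.86%. None of them passed adjustment in either fit, and the length offset described below gave 0. The median log2 fold change of the 81 genes was 0.15, with 76 positive, and 0.00 over all genes. Medians were 0.15 in complex I, 0.04 in complex II, 0.14 in complex III, 0.16 in complex IV and 0.12 in complex V. The 1 wk libraries overlapped the sedentary ones for each of the 81 genes, whereas 1.71% of all genes lay wholly above and 2.51% wholly below. Cox4i1, the main isoform of the regulatory subunit 4, had 1363, 1561, 1760 and 1037 CPM at 1 wk, against 1321, 1331, 1325 and 1184 CPM in sedentary mice. The 1 wk group held both the highest and the lowest value, and the log2 fold change was 0.15 ± 0.13 (edgeR adjusted p = 0.935). Atp5g1 had the smallest p, at 321, 372, 411 and 274 CPM at 1 wk, against 291, 303.5, 301.1 and 271 CPM in sedentary mice (0.24 ± 0.12, adjusted p = 0.846).

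After 2 weeks the median log2 fold change over the 81 genes was -0.03, with 28 positive and 53 negative, against 0.01 over all genes. None passed adjustment (0% of all genes), and none reached an unadjusted p under 0.05, against 4.02% of all genes that were higher and 3.24% that were lower. The medians of the complexes lay between -0.06 in complex III and -0.01 in complex V. Sdha had 918, 946, 684 and 887 CPM at 2 wk, against 858, 898, 706 and 807 CPM in sedentary mice, and the groups overlapped. Uqcrfs1, the Rieske iron-sulfur protein of complex III, had 597.5, 468, 579 and 541.5 CPM at 2 wk, against 525, 542, 549.8 and 528 CPM in sedentary mice, with library 2 of the 2 wk group lowest (log2 fold change 0.03, 95% interval -0.17 to 0.22). Over the 76 genes at 10 CPM or more, the interval lay within 1.5-fold for 75 at 2 wk and for 74 at 1 wk.

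**Figure D2:**
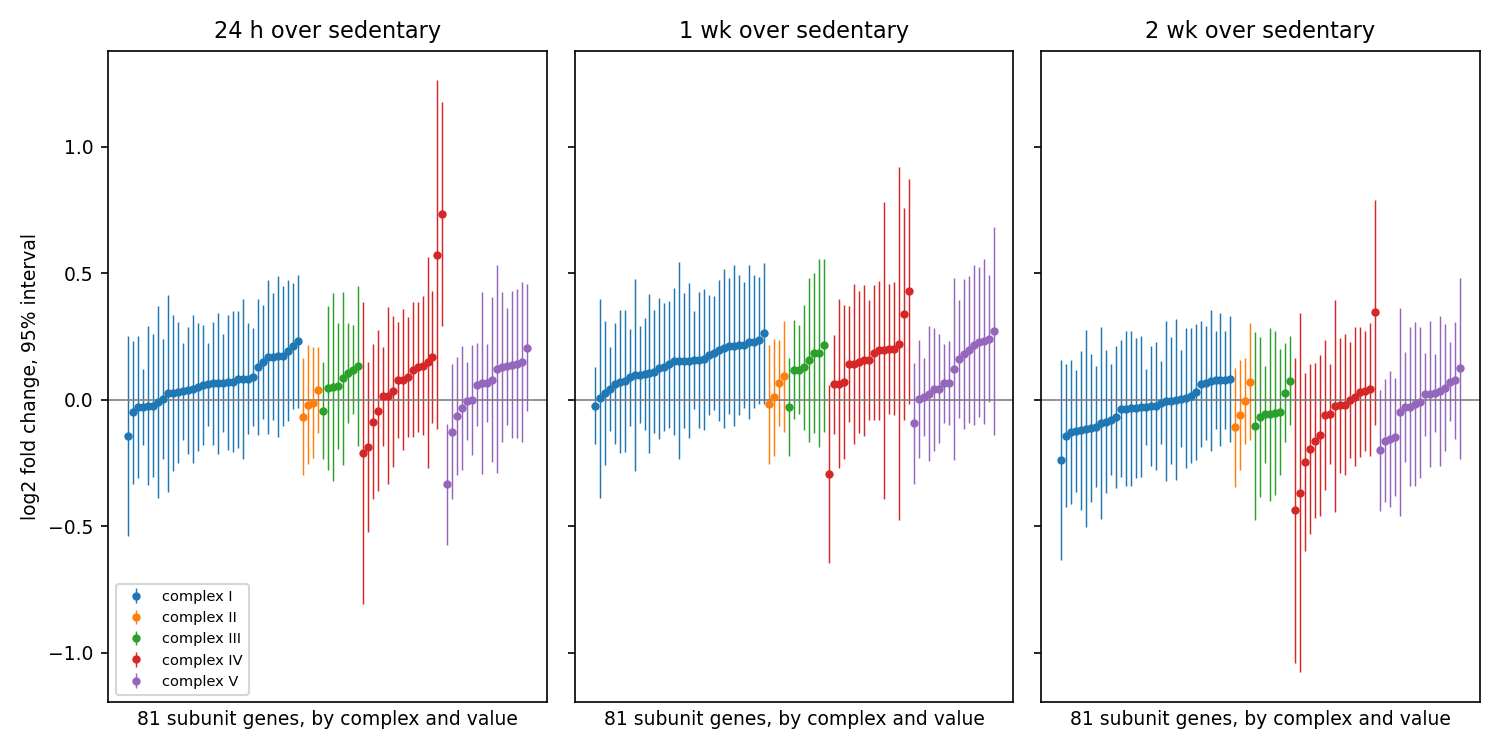
Log2 fold change of the 81 tested subunit genes at 24 h, 1 wk and 2 wk over sedentary cortex, ordered by complex and by value; bars are 95% intervals of the edgeR fit. The widest bars belong to low-count isoforms of complex IV, and the median is 0.06 at 24 h, 0.15 at 1 wk and -0.03 at 2 wk.

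Read complex by complex, the other core subunits moved within the spread of the libraries. Their fold changes are given on the log2 scale over sedentary cortex, for 24 h, 1 wk and 2 wk in that order. Ndufs1 was at -0.03, -0.02 and -0.03, and each of its intervals ended within 0.18 of 0. Ndufv1, which binds NADH, was at 0.03, 0.09 and 0.00, and its partner Ndufv2 at 0.04, 0.15 and -0.11. The iron-sulfur subunits Ndufs7 and Ndufs8 were at 0.15, 0.19 and 0.07 and at 0.13, 0.21 and 0.03, and Ndufs3 was at 0.08, 0.10 and -0.08. Adjusted p over these 6 genes was between 0.725 and 0.995 by edgeR.

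In complex II, Sdha was at -0.07, 0.01 and 0.07, Sdhb at -0.01, 0.09 and -0.06, Sdhc at 0.04, 0.06 and -0.01 and Sdhd at -0.02, -0.02 and -0.11. In complex III, Uqcrc1 was at 0.12, 0.12 and 0.07. In complex IV, Cox5a and Cox5b, which sit on its matrix side, were at 0.09, 0.16 and 0.03 and at 0.13, 0.20 and 0.03, while Ndufa4 was at -0.09, 0.07 and -0.16. Cox7a2l, a factor that joins complexes III and IV in supercomplexes, was at 0.01, 0.06 and -0.06. In complex V, Atp5a1 was at -0.01, 0.01 and 0.03, and its level was 2502 ± 90.8 CPM at 24 h, 2530 ± 98.9 at 1 wk and 2561 ± 102.8 at 2 wk, against 2513 ± 121 CPM in sedentary mice (SD, n = 4).

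Summed over its genes, complex I came to 9274 ± 296 CPM in sedentary mice, 9745 ± 848 at 24 h, 10215 ± 1716 at 1 wk and 9156 ± 1100 at 2 wk (SD, n = 4). Complex II came to 2419 ± 90.0, 2386 ± 69.2, 2484 ± 177 and 2401 ± 100.3 CPM in the same order. Complex V held the largest sum, at 12721 ± 414, 13138 ± 765, 13490 ± 1393 and 12793 ± 1024 CPM. The groups overlapped in each of these 3 sums, and the SD was largest at 1 wk.

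Between durations the same genes were compared without the sedentary mice. From 24 h to 1 wk the median log2 fold change of 1 wk over 24 h was 0.07, and no subunit gene passed adjustment (0% of all genes). The median was -0.02 without library 3 of the 1 wk group, 0.18 without its library 4 and 0.03 with the length offset. Atp5s was higher at 1 wk before adjustment (0.24 ± 0.12, adjusted p = 0.697), 1 of 81 against 2.43% of all genes, and no subunit gene was lower, against 4.72%. For 2 wk over 24 h the median was -0.10, with 74 of 81 negative. It ran from -0.17 without library 1 of the 2 wk group to -0.02 without its library 2. With the length offset it was -0.03, with 64 negative. Of all genes 0.0124% passed adjustment, none of them a subunit gene, while 5.29% were higher and 4.32% lower before it. The 1 subunit gene lower before adjustment was Cox6a2, at 1.99, 1.23, 1.23 and 0.789 CPM at 2 wk (-0.94 ± 0.33, adjusted p = 0.418), and the groups overlapped. Without library 3 of the 24 h group its log2 fold change was -0.49, and 0 subunit genes were lower before adjustment. For 2 wk over 1 wk the median was -0.18, with 76 negative, and 0% of all genes passed, with 2.86% higher and 1.71% lower before adjustment. The median ran from -0.30 without library 4 of the 1 wk group to -0.08 without its library 3, and was -0.05 with the length offset. Cox4i2 was the 1 subunit gene lower before adjustment, at 0.412, 0.43, 0.613 and 1.02 CPM at 2 wk, against 0.865, 1.17, 1.05 and 0.746 CPM at 1 wk (-0.63 ± 0.29, adjusted p = 0.868). Without library 4 of the 1 wk group 59 subunit genes were lower before adjustment, against 8.33% of all genes, without library 1 of the 2 wk group 16, against 2.88%, and with voom 38, against 6.46%, and none passed adjustment. Across the 4 groups together, no subunit gene passed among 0.0124% of all genes, and 2 of 81 reached an unadjusted p under 0.05, against 8.73% of all genes.

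**Figure D3:**
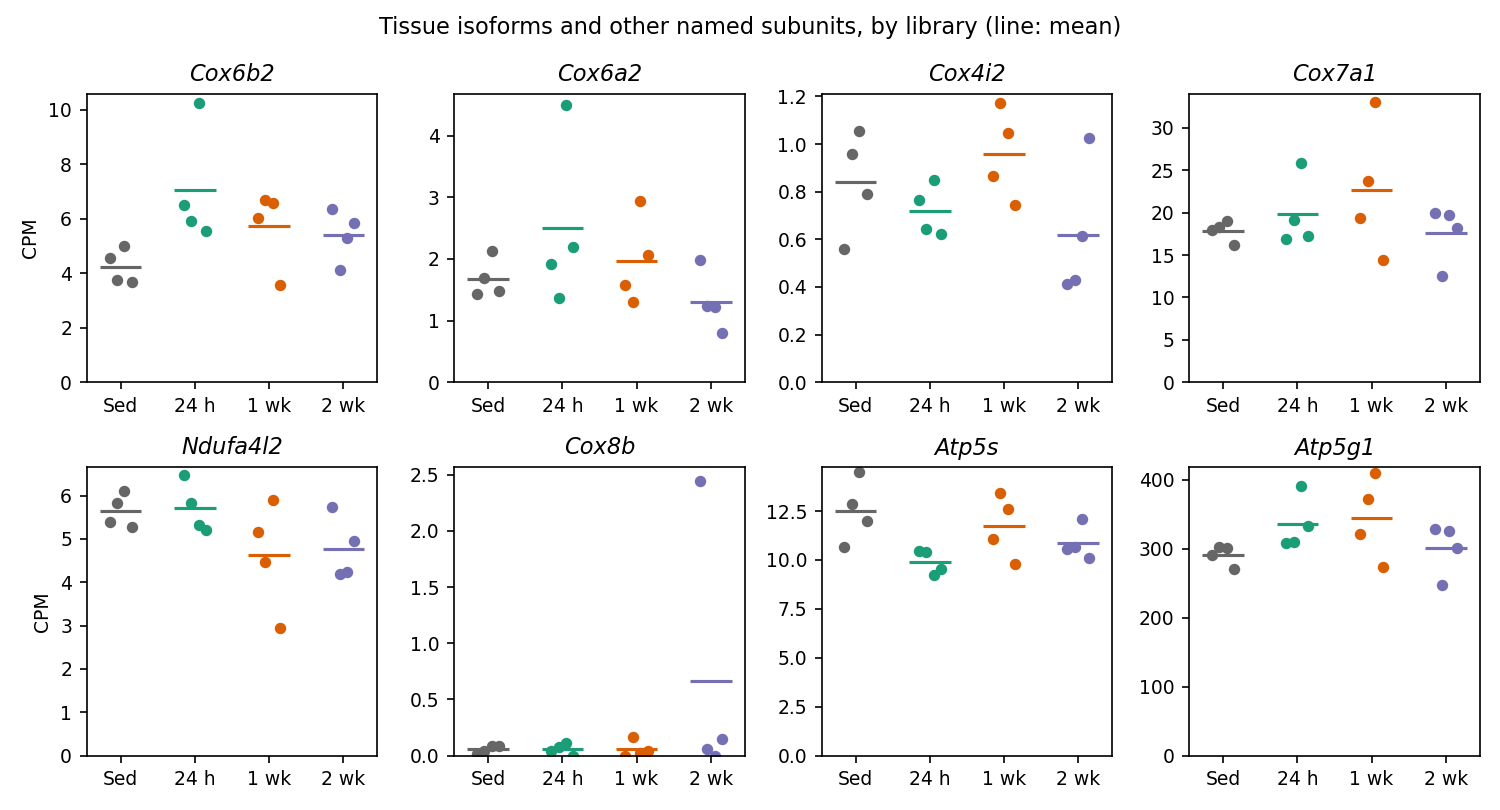
CPM of tissue isoforms and other named subunits in every library, with the mean of each group as a line. Cox6b2 and Atp5s are the genes whose 24 h libraries lie apart from the sedentary ones at an unadjusted p under 0.05, and Cox8b is high in 1 library at 2 wk.

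Cox8b, the heart and muscle isoform of subunit 8 that is also made in brown fat, was nearly silent except in library 1 of the 2 wk group. That library had 101 counts (2.45 CPM) and the other 15 had 0 to 8. It also had the fat genes Ucp1 at 2.54 CPM, Cidea at 3.42, Adipoq at 2.62 and Plin1 at 0.993 CPM. Fabp4, the most abundant gene of the fat list, was at 38.2 CPM there and at 17.7 to 56.1 CPM in the other libraries, and the summed skeletal muscle markers were near 0. The 5 genes of the fat list summed to 47.8 CPM in that library, and to 17.8 to 56.5 CPM in the other libraries. Of these 5 genes, 1 passed the filter on low counts. The part of fat in the Cox8b value was not tested.

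The subunit genes shifted together in single libraries, over a wider range than that of the group means (-0.04 to 0.12). Relative to the sedentary mean, the median log2 difference over the 81 genes was 0.01, 0.04, 0.02 and -0.07 in the sedentary libraries, -0.06, -0.02, 0.20 and 0.14 in the 24 h libraries, 0.11, 0.26, 0.39 and -0.27 in the 1 wk libraries, and 0.15, -0.31, 0.02 and -0.01 in the 2 wk libraries. In library 3 of the 1 wk group 78 of 81 genes lay above the sedentary mean, and in library 2 of the 2 wk group 78 lay below it. Over libraries the SD of this median was 0.05 in sedentary mice, 0.13 at 24 h, 0.28 at 1 wk and 0.19 at 2 wk. Complexes I, III, IV and V ran in parallel, and complex II had the smallest range. At 1 wk the medians of the 4 genes of complex II ran from -0.19 to 0.16, against -0.28 to 0.39 for complex I. The medians of the 7 catalytic core genes of complex I also had a narrower range than the whole complex, from -0.16 to 0.25. Within complex II, 3 genes lay above the sedentary mean and 1 below it in library 3 of the 1 wk group. The SD over its genes there was 0.19, against 0.14 in complex I.

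Transcript length moved with this pattern. The longest transcript was shorter than the median of other tested genes, 3106 bases, for 75 of the 81 subunit genes. Among other genes, the 10% with the shortest transcripts were 0.31 above the sedentary mean in library 3 of the 1 wk group, and the 10% with the longest were 0.32 below it. In library 2 of the 2 wk group the shortest 10% were at -0.22 and the longest at 0.29. The medians of long and of short subunit genes lay on the side of the short transcripts in these libraries. For the 16 subunit genes with a longest transcript of 2000 bases or more, the median was 0.31 in library 3 of the 1 wk group. It was -0.18 in library 2 of the 2 wk group. In each of these libraries 13 of the 16 lay on that side and 3 on the side of the long transcripts. For the 40 under 1000 bases the medians were 0.45 and -0.34 in the same order, and all 40 lay on the side of the short transcripts in both. With an offset for transcript length, an alternative added after the data were seen, the median subunit log2 fold change was 0.04 at 24 h, 0.07 at 1 wk and 0.00 at 2 wk over sedentary cortex, and no subunit gene passed adjustment. What makes length and library move together was not tested.

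**Figure D4:**
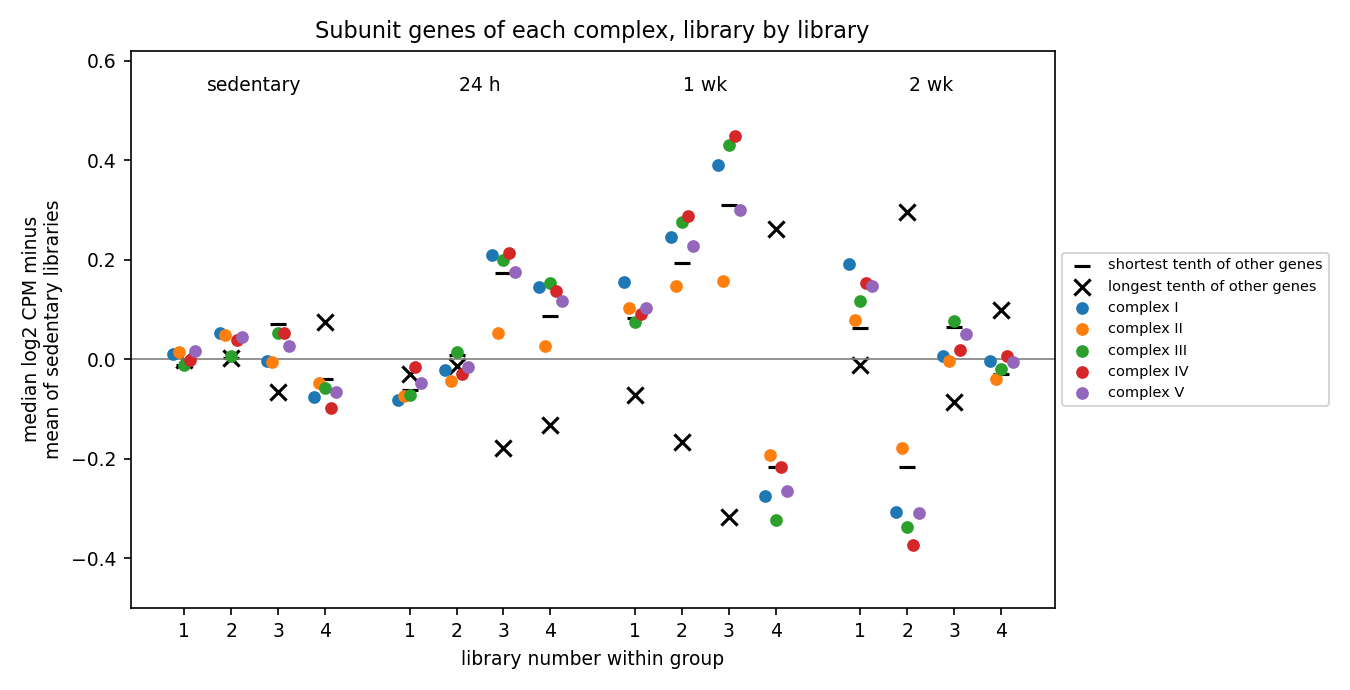
Median log2 CPM of the subunit genes of each complex in every library, minus the mean of the sedentary libraries, with the 10% of other genes that have the shortest (dash) and longest (cross) transcripts. In the libraries farthest from 0 the complexes lie on the side of the short transcripts, and the spread is widest at 1 wk (-0.27 to 0.39 over all subunit genes).

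The spread between libraries differed among subunits. Over all 16 libraries the coefficient of variation of CPM was 3.79% for Atp5a1, 4.06% for Ndufs1 and 4.18% for Atp5b. Among genes at 10 CPM or more it was highest for Cox7a1 at 24.6%, Atp5e, the epsilon subunit of ATP synthase, at 22.8% and Ndufb4 at 21.1%. Across these 76 genes, which share their libraries, Spearman's rho between the coefficient and the longest transcript was -0.30.

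Other genes of the pathway were followed as lists. Of 14 assembly factors of complex I and 19 of complex IV, none passed adjustment in any comparison with sedentary mice. The median log2 fold changes of complex I assembly factors were 0.02 at 24 h, 0.08 at 1 wk and -0.07 at 2 wk, and those of complex IV 0.05, 0.07 and -0.04. The 12 citrate cycle genes had medians of 0.04, 0.08 and 0.07, and the 7 regulators, among them Nrf1, Gabpa, Tfam and Ppargc1a, -0.07, -0.03 and -0.01, with no gene past adjustment. Assembly factors of complexes II, III and V (4, 6 and 3 genes), 6 carriers and 5 subunits that the name rule misses also had no gene past adjustment, with medians between -0.11 and 0.14 over the 3 durations.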

How the data were processed

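The TruSeq Stranded mRNA kit was used, as the labels give it. The values deposited by the authors are raw gene counts, without normalization, on GRCm38 (mm10). The submitters' processing notes name HTSeq 0.10.0 and FastQC 0.10.1. For the aligner, annotation release and strand setting, nothing was given in the sources used here, so genes with near-identical copies or antisense overlaps are uncertain. Of 24 columns, 8 matched no sample and were not used. Names came from GENCODE M21 (52133 IDs, 94.1%).

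Genes were filtered with filterByExpr, scaled by TMM and tested with edgeR 4.0.16 (R 4.3.3) by the robust quasi-likelihood F-test over all 16 libraries, with Benjamini-Hochberg adjustment over 16126 genes. Intervals are 95%, and values after ± are SE for log2 fold changes and SD for levels. DESeq2 1.42.0 and limma 3.58.1 (voom) were alternatives. Copies were found with BLAST+ 2.17.0. The test script was checked on simulated counts. In each group every pair of libraries differed by more than sampling noise. Core subunits, isoform pairs, the highest and lowest level per complex, and the genes of smallest p in a comparison were named by rule; genes named for their spread or for groups that do not overlap were chosen after their values were seen. One gene that the rule names is not reported here. The genes, lists and motifs were chosen with earlier results of these data known.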

Additional observations from a re-analysis of the deposited data

Results flagged for a closer look

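Among 140 sets of 4 libraries of a group, 7 held a library far from the other 3, and chance flags about 1 in 20. Cox8b was at 2.447 CPM in library 1 of the 2 wk group and at most 0.1493 CPM in the other 3, beside fat genes in the same library. Ndufv1, a core subunit of complex I, was at 486.8 CPM in library 2 of the 2 wk group, against 578.1 to 596.5 in the others. In library 4 of the 1 wk group, the summed CPM of complex II was 2219, against 2559 to 2597, and Atp5l was at 3.991 CPM, against 5.667 to 5.975. Atp5a1 was at 2367 CPM in library 2 of the 24 h group, against 2538 to 2561. Among sedentary libraries, Cox4i1 was at 1184 CPM in library 4, against 1321 to 1331. In the same library the ratio of all mitochondrially encoded counts to nuclear subunit counts was at 1.346, against 1.004 to 1.059.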

How the results depend on the processing

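No subunit gene passed adjustment in any comparison under any alternative run, including DESeq2, voom, other scalings and filters, the replicate block, the length offset and leaving out each library in turn. The median subunit log2 fold change over sedentary cortex ranged from 0.04 to 0.09 at 24 h, 0.07 to 0.22 at 1 wk and -0.04 to 0.00 at 2 wk over the settings that kept all libraries. Leaving out 1 library gave 0.02 (without library 3 at 24 h) to 0.12 (without library 1) at 24 h, 0.06 (without library 3 at 1 wk) to 0.25 (without library 4 at 1 wk), and -0.10 (without library 1 at 2 wk) to 0.05 (without library 2 at 2 wk). Over all genes, edgeR called 0 at 24 h, 0 at 1 wk and 0 at 2 wk; DESeq2 called 77, 14 and 35, and voom 59, 6 and 7. With the replicate block the counts were 0, 0 and 5, and with no filter on low counts 9, 0 and 5. Fits of the 2 groups alone called 28, 0 and 2, total-count scaling 2, 0 and 0, and the length offset, chosen after seeing the data, 5, 0 and 0. For 2 wk over 24 h edgeR called 2 genes, DESeq2 36, the replicate block 11, no filter 8, and voom, total counts and the 1 CPM filter 4 each. DESeq2 called 59 for 1 wk over 24 h and 4 for 2 wk over 1 wk, where edgeR called 0 and voom 0 and 1. Across the 4 groups edgeR called 2, DESeq2 160, voom 34, no filter 10 and the replicate block 5. Of 24 pairs of libraries with the same number, 8 had deviations correlated above 0.1, and of 72 pairs with different numbers 10 did. No label says that a number is shared, and not every same-numbered pair passed, so the numbers were not taken to pair libraries. Libraries of a group differ by more than counting error, and the median standard error of a subunit log2 fold change was 0.13 at 24 h.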
